A study of Drosophila melanogaster with 6 samples.

Results

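This account follows 10 neuron genes of Drosophila melanogaster in RNA from sorted embryonic mesoderm. The genes were chosen by name, with earlier results of these data known: elav, fne, nerfin-1, insb, scrt, cpo, brp, nSyb, Syt1 and futsch. Of these, 8 had a probe set that the platform annotation gives to exactly 1 gene, 15 probe sets in all, among the 11982 genes and 18769 probe sets tested; scrt and Syt1 were not analysed here.

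Cells positive for GFP were sorted from embryos kept at 29 °C until they had reached the end of stage 11 or the start of stage 12. Every embryo carried twi-GAL4, a driver active under twist control in the mesoderm, and the reporter UAS-2EGFP. The 3 jumu arrays came from embryos that also carried UAS-jumu, so that the forkhead factor Jumu was made in the same cells, and the 3 control arrays from embryos without it. The labels name no transgene in place of UAS-jumu in the controls, and leave unsaid what a replicate is. The p-values therefore reflect only how these samples vary, and that variation may be technical.

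Fly neurons are born from neuroblasts that divide to give ganglion mother cells, whose daughters leave the cell cycle and differentiate. RNA-binding proteins of the ELAV family appear early in that process and control splicing and 3′ end choice of neuronal transcripts, and elav is the standard marker of fly neurons, although its RNA is also known from embryonic neural progenitors and glia. Zinc finger factors such as Nerfin-1 act in young neurons, while proteins of the active zone, the synaptic vesicle and the axonal microtubules serve the later steps of wiring and transmission. None of these genes is a marker of mesoderm.

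Values are log2 signals after quantile normalization, and differences are jumu minus control. "Fell" and "rose" are used for genes past an adjusted p of 0.05 with limma (Benjamini-Hochberg over all 18769 probe sets). Of the 8 measured neuron genes 4 fell and 0 rose, where 1.71% of all 11982 genes fell and 1.61% rose; at an unadjusted p under 0.05, 5 were lower and 0 higher, where 11.7% of all genes were lower and 10.8% higher. Their median log2 change was -0.76, against -0.01 over all genes. As the genes were chosen with earlier results known, these contrasts describe the set and are no independent test of it. The spread between replicates depended on signal: the median SD was 0.0895 for probe sets with a mean of 9 to 12, but 1.17 under a mean of 6. Of the 8 genes, 5 had a mean over 9, and these are described first.

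The RNA-binding protein gene elav (probe set 1636615_at) had control signals of 13.31, 13.34 and 13.32, and signals of 12.47, 12.41 and 12.43 with jumu. The lowest control array lay 0.84 above the highest jumu array. It fell by 0.89 ± 0.09 (SE, adjusted p = 0.0271 with limma, but a change of 0.014 when scaled to spiked-in poly-A controls), to 54.0% of its control signal, from 13.32 ± 0.019 (SD, n = 3) to 12.44 ± 0.031 (SD, n = 3). The marker was thus well above a signal of 6 in sorted cells of both genotypes.

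Found in neurons (fne, 1633852_at) encodes another ELAV family protein, and it had the most negative change of the 8. Its control signals were 11.14, 10.98 and 11.08, and its jumu signals 9.80, 9.76 and 9.82. The groups stood 1.16 apart at their nearest arrays. The fall was 1.27 ± 0.10 on the log2 scale (SE, adjusted p = 0.0220), which left 41.4% of the control signal. The third ELAV family gene, Rbp9, had 6.51 ± 0.34 (SD, n = 3) in controls and 6.28 ± 0.38 (SD, n = 3) with jumu, a difference of -0.24 ± 0.28 (SE) that did not pass (adjusted p = 0.729). ELAV proteins share closely related RNA-binding domains, and whether probes of 1 family gene also caught RNA of another was not tested.

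The zinc finger gene nerfin-1 (1634039_at), which acts in axon guidance of early neurons, had 11.92, 11.97 and 11.88 in controls and 10.88, 10.88 and 10.82 with jumu. All 3 jumu arrays were about 1 log2 unit below all 3 controls. It fell by 1.06 ± 0.09 (SE, adjusted p = 0.0231), to 47.9% of control. The gene insb (1627238_at), insensible, encodes a nuclear inhibitor of Notch signalling. Its control signals were 10.85, 10.79 and 10.79 and its jumu signals 9.86, 9.67 and 9.76, again without overlap. It fell by 1.05 ± 0.10 (SE, adjusted p = 0.0256), to 48.3% of control.

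The RNA-binding protein gene cpo, couch potato, best known from the peripheral nervous system, was lower by less. Its brightest probe set (1632644_s_at) had 11.34, 11.21 and 11.29 in controls and 10.50, 10.73 and 10.72 with jumu, and the groups did not overlap. The difference of -0.63 ± 0.11 (SE) did not pass (adjusted p = 0.0689), and it did with an intensity trend in limma's variance prior (adjusted p = 2.51e-06). A further cpo probe set differed by -0.31 ± 0.11 (SE, adjusted p = 0.220) without overlap, and the last lay under a signal of 5 in every array.

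**Figure D1:**
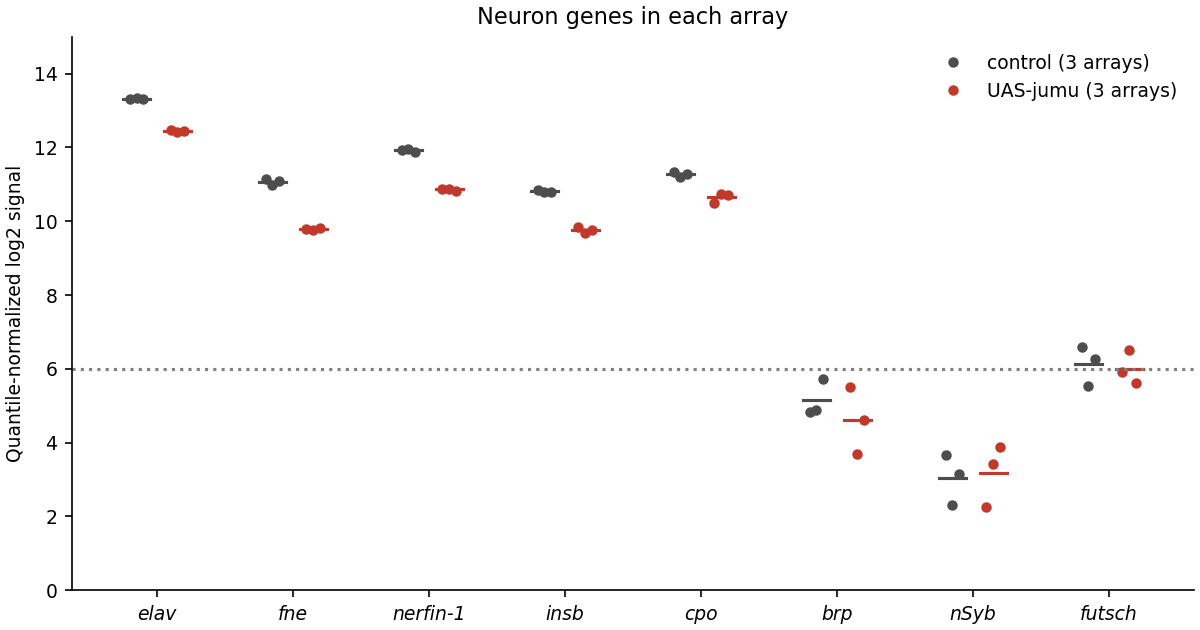
Quantile-normalized log2 signal (vertical axis) of the 8 measured neuron genes in each array, 3 control (grey) and 3 UAS-jumu arrays (red), with the group mean as a bar and the brightest probe set for each gene. The groups are apart for elav, fne, nerfin-1, insb and cpo, and overlap for brp, nSyb and futsch, which lie near or under the dotted line at 6.

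The 3 measured genes of the synapse and axon, brp, nSyb and futsch, lay near or under a signal of 6 in both genotypes. The active zone scaffold gene brp had 4 probe sets, whose signals ran from 0.64 to 6.16 over the 6 arrays. The brightest differed by -0.54 ± 0.55 (SE, adjusted p = 0.669). The others pointed in both directions (-2.74, without overlap, 1.31 and 0.67), and all 4 had an adjusted p of 0.192 or more. The vesicle SNARE gene nSyb had 3.65, 2.31 and 3.14 in controls and 2.25, 3.41 and 3.89 with jumu, and the groups overlapped fully (0.15 ± 0.57 SE, adjusted p = 0.926). For futsch, the MAP1B-like microtubule protein gene, controls had 6.58, 5.52 and 6.26 and jumu arrays 5.90, 6.50 and 5.62 (-0.11 ± 0.37 SE, adjusted p = 0.916). Its other probe sets, under a signal of 6 in every array, differed by -0.63 and 0.50. With SEs of 0.37 to 0.57 a difference of the size seen in elav was not detectable for these 3 genes.

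**Figure D2:**
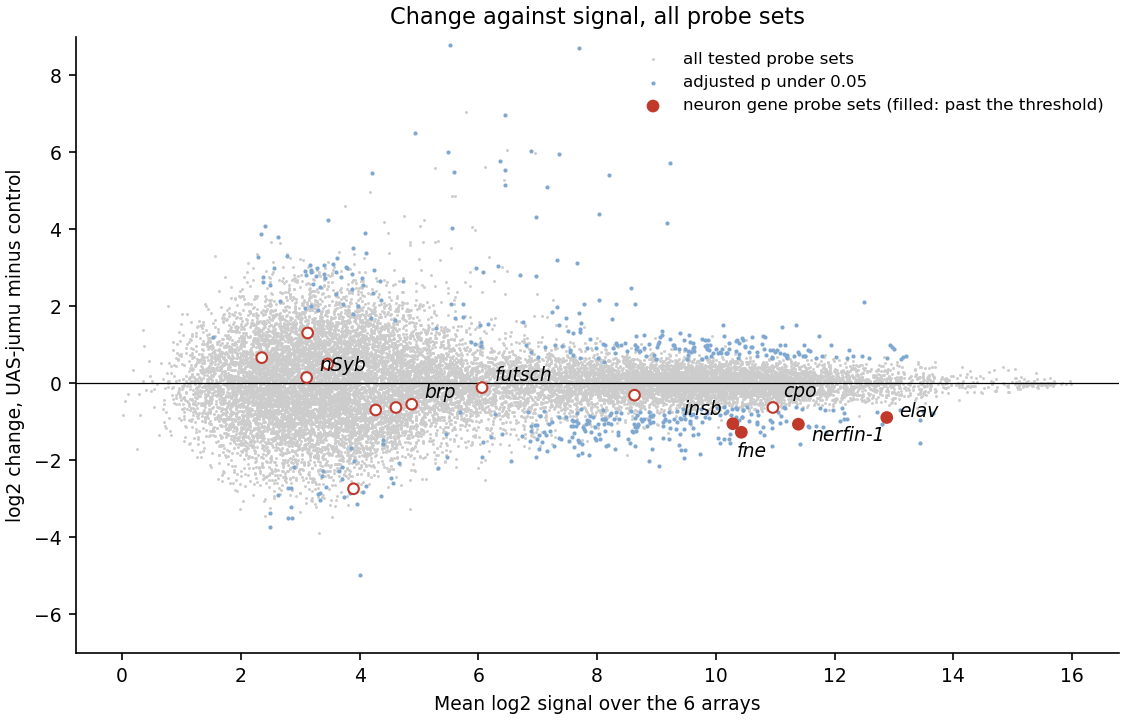
Difference in log2 signal, jumu minus control (vertical axis), against the mean log2 signal over the 6 arrays (horizontal axis) for all 18769 probe sets in grey, those past an adjusted p of 0.05 in blue and the 15 neuron gene probe sets as red circles, filled where past it. The 4 filled circles lie at means over 9 and below the band of most probe sets, and those under 6 lie inside the wide scatter there.

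Read against well measured genes alone, the group still stood low. Among the 3950 genes with a mean over 9, 2.18% fell, and the changes at the 5th and 95th percentiles were -0.53 and 0.54. Only 21 of these genes had a change as low as that of fne, counting fne itself. The number was 36 for nerfin-1, 37 for insb, 56 for elav and 128 for cpo. In elav, fne, nerfin-1, insb and cpo the groups did not overlap, with jumu lower, and this was so for 29.3% of the 3950 genes. With an intensity trend all 5 passed as lower, and 23.1% of the 3950 genes were then lower and 22.7% higher, against 2.48% higher without it.

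The size of the differences depended on the scaling, and the calls on all 6 arrays. Without any 1 array the changes of the 4 genes stayed between -1.32 and -0.88, but their adjusted p rose to between 0.0752 and 0.119. Centring each array on its median moved the median change of all probe sets to 0.16, and the differences were -0.64 for elav, -0.97 for fne, -0.77 for nerfin-1 and -0.74 for insb, none past the threshold. Array controls spiked in as poly-A RNA had mean log2 signals of 8.16, 8.26 and 8.21 with jumu and 9.13, 9.15 and 9.13 in controls, and hybridization controls had 13.08, 12.74 and 12.90 against 13.30, 13.63 and 13.50. Scaling to the hybridization controls moved the median change of all probe sets to 0.46, and the log2 differences became -0.34 for elav, -0.68 for fne, -0.47 for nerfin-1, -0.44 for insb and -0.04 for cpo, none past the threshold. Scaling to the poly-A controls moved that median to 0.81. There fne was at -0.32, nerfin-1 at -0.11 and insb at -0.09, while elav at 0.01 and cpo at 0.32 turned positive. Median centring and the spike-in scalings shift whole arrays, so they leave each gene's distance from the median of all probe sets nearly as it is, below it for these 4 genes. With no further normalization, which moved that median to -0.11, the 4 falls were 0.91, 1.25, 1.04 and 1.01 in the order elav, fne, nerfin-1 and insb, and all passed.

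**Figure D3:**
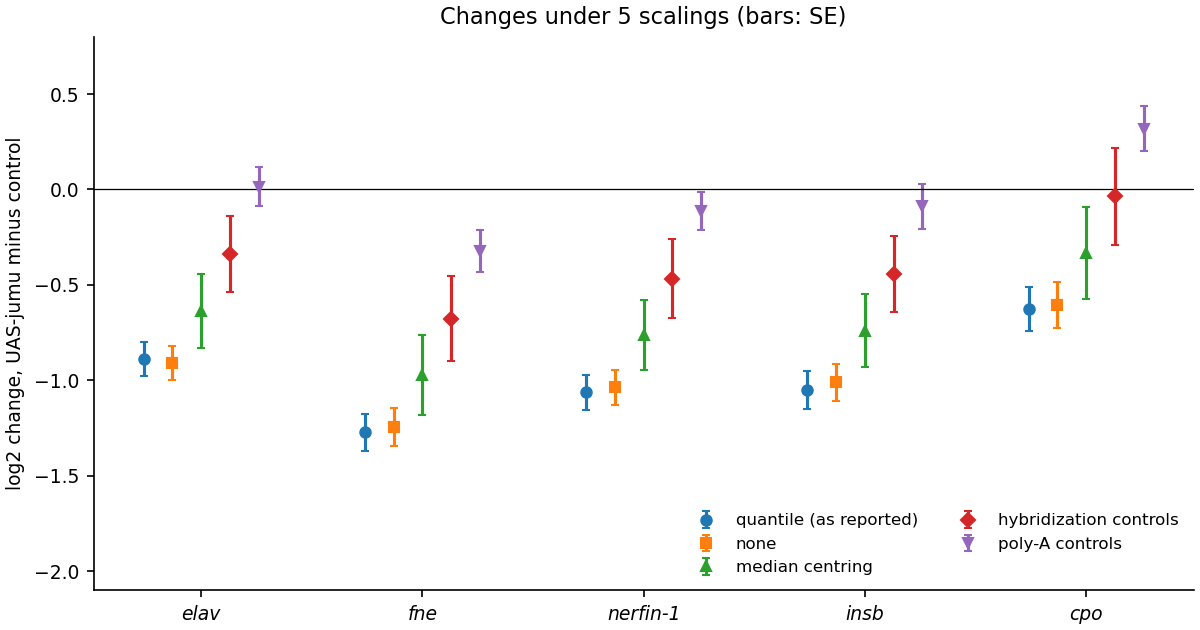
Difference in log2 signal, jumu minus control (vertical axis, bars are limma SEs, 3 arrays a group), of the 5 well measured neuron genes under 5 scalings of the arrays. The scalings other than quantile normalization shift whole arrays and so cannot change the order of the genes, from fne lowest to cpo highest, and with poly-A controls elav (0.01) and cpo (0.32) lie above 0.

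Differences between genes of the same array, taken on the deposited values, do not change when a whole array is shifted. The signal of elav exceeded that of fne by 2.22, 2.40 and 2.27 in controls and by 2.66, 2.63 and 2.61 with jumu, so that fne was lower by 0.34 more than elav. Against cpo, elav exceeded by 2.02, 2.19 and 2.05 in controls and by 1.97, 1.67 and 1.71 with jumu. For nerfin-1 and insb the difference was 1.10, 1.17 and 1.09 in controls and 1.03, 1.19 and 1.07 with jumu, and here the groups overlapped. In the other 9 of the 10 pairs of these 5 genes they did not, as in 59.8% of all pairs of genes with a mean over 9. With 3 arrays against 3 an exact permutation test cannot go below p = 0.1, so it could call no pair.

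The signal of the neuron genes relative to mesodermal genes that rose changed by more, as it must with such references. The FGF receptor gene htl guides mesoderm migration, and it rose by 1.03 ± 0.11 (SE, adjusted p = 0.0307). On the deposited values elav exceeded htl by 3.04, 3.11 and 3.14 in controls and by 1.13, 1.25 and 1.02 with jumu. The change in this gap was -1.96 for elav, -2.30 for fne, -2.09 for nerfin-1, -2.07 for insb and -1.66 for cpo. Against the myoblast fusion gene sns it ran from -2.22 to -1.58, and against lmd, a gene of fusion-competent myoblasts, from -1.85 to -1.21. Both rose too, and a shift of a whole array, as in the spike-in scalings, leaves these values as they are. The size of the change depends on the reference, since other genes of the mesoderm list did not pass. Among these rst was at 0.01, while sna (-0.49) and Tm2 (-0.90) were lower with jumu, without overlap of the groups. Whether the signal of each listed gene came from mesodermal cells was not tested.

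Markers of other cell types differed between the same arrays. The summed signal of the 6 measured neuron markers was 13.99 to 14.01 (log2) in controls and 13.02 to 13.06 with jumu, with brp and nSyb under 6 in every array. The 4 measured markers of epidermis and trachea summed to 12.13 to 12.28 in controls and 11.14 to 11.30 with jumu, and the 5 neuroblast markers to 12.67 to 12.73 and 12.36 to 12.40. The 5 glial markers overlapped, at 12.92 to 13.08 and 13.03 to 13.15, whereas repo alone among them fell (-1.12 ± 0.15 SE, adjusted p = 0.0384). The 5 measured mesoderm markers went the other way, from 13.29 to 13.34 up to 14.06 to 14.08. These sums are carried by few genes: in controls elav gave 62.5% of the neuron sum, grh 62.2% of the epidermal and tracheal sum and lmd 72.2% of the mesoderm sum. Longer lists, described below, were mixed at an unadjusted p under 0.05 with limma (11.7% of all genes lower, 10.8% higher). For epidermis and trachea 8 genes were lower, among them grh (-1.16) and kni (-1.04). The 4 higher genes included Egfr (0.64) and pnr (0.61). For mesoderm and muscle 8 were higher and 2 lower, sna (-0.49) and Tm2 (-0.90). Genes were placed in the marker sets and lists by name, and which cells each signal came from was not tested. No marker outside the neuron list lay under 6 in every array. The part of cell composition in the neuron gene differences was not tested, and fewer neurons among the sorted cells cannot be told apart from less neuronal RNA per cell in these bulk samples. The 3′ minus 5′ signal, a measure of RNA quality, was higher in every jumu array for the actin control (2.41 to 2.57, against 2.35 to 2.36 in controls). It overlapped for eIF-4a (3.62 to 3.81 and 3.62 to 3.91) and for Act5C (2.88 to 3.69 and 2.98 to 3.28), and its part in the neuron gene differences was not tested.

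Over 8 lists of neuronal genes, with the genes above left out, 123 of 141 entries were measured, and 4 fell and 3 rose (1.71% and 1.61% of all genes), with a median of -0.17 against -0.01 over all genes. At an unadjusted p under 0.05, 25 were lower and 15 higher, and the counts by list at that threshold are to be read against the 11.7% and 10.8% of all genes. Of the 123 genes 53 had a mean under 6. Among the 36 with a mean over 9, 20 had a negative change and the median was -0.01. At a mean of 6 to 9 these were 24 of 34 and -0.25, where 51.6% of all such genes were negative with a median of -0.02. Under 6 they were 32 of 53 and -0.21, against 51.3% and -0.03. With an intensity trend 23 of the 123 were lower and 13 higher, against 10.9% and 10.3% of all genes.

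Neuronal RNA-binding proteins beside elav, fne and cpo, Rbp9 included, held no gene past the threshold among 6. Of these 2 were higher and 0 lower before adjustment (p under 0.05), with a median of 0.00032. The genes Fmr1, mub and pum had the smallest p, at 0.62 ± 0.14, 0.34 ± 0.12 and 0.15 ± 0.09 (SE). In the list of zinc finger and BEN domain factors 0 of 9 passed (4 lower and 1 higher at an unadjusted p under 0.05; median -0.21). There sqz, a zinc finger gene of neuron identity, was at -0.80 ± 0.13 (SE, adjusted p = 0.0538), insv, which encodes a BEN domain corepressor, at -0.50 ± 0.09 (SE, adjusted p = 0.0708, but 0.44 with poly-A scaling) and jim at 0.67 ± 0.11 (SE, adjusted p = 0.0578).

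Of 22 further genes of vesicle release 0 passed (3 lower and 1 higher at an unadjusted p under 0.05; median -0.19), and 12 had a mean under 6. The active zone assembly gene RhoGAP100F, also called Syd-1, was at -0.49 ± 0.10 (SE, adjusted p = 0.0837, but 0.46 with poly-A scaling), the vesicle protein gene Syn at -0.60 ± 0.17 and the SNARE gene Snap25 at 0.53 ± 0.15 (SE), both under 6 in each group. Transmitter synthesis and transport genes were nearly all dim, 13 of 14 with a mean under 6, including ChAT (4.97 in controls, 2.57 with jumu) and VGlut (4.63 and 2.94), for choline acetyltransferase and the vesicular glutamate transporter. The list's median of -0.87 therefore comes from signals whose replicates differed widely. Its 1 called gene, Phm, a peptide-amidating enzyme gene, rose by 0.82 ± 0.11 (SE, adjusted p = 0.0415), and its other probe set differed by 0.26.

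The axonal cytoskeleton list held falls in 2 of 11 genes and no rise (4 lower and 1 higher at an unadjusted p under 0.05; median -0.26). The groups did not overlap, with jumu lower, in 9 of the 11 genes, and with jumu higher in 1. Of all genes 17.5% were lower without overlap, and 29.3% of those with a mean over 9. With an intensity trend 5 of the 11 were lower and 1 higher, against 10.9% and 10.3% of all genes. Ank2, an ankyrin of axons and synapses, went from 10.19 ± 0.14 to 8.58 ± 0.31 (SD, n = 3), a fall of 1.61 ± 0.20 (SE, adjusted p = 0.0356). Its probe sets with means of 8.79 and 7.27 differed by -1.15 and -1.63, and the dim ones by -1.66 and 0.23. The stathmin gene stai fell from 7.56 ± 0.21 (SD, n = 3) to 5.53, and so by at least 1.56 against a signal of 6 (adjusted p = 0.0307).

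Axon guidance and adhesion genes went both ways, with 2 of 22 lower and 1 higher past the threshold, 3 lower and 7 higher at an unadjusted p under 0.05, and a median of 0.11. The guidance gene beat-Ia, which lets motor axons leave their bundle, fell by 1.65 ± 0.20 (SE, adjusted p = 0.0356), and Appl, the fly homologue of the amyloid precursor protein and a pan-neuronal gene, by 1.14 ± 0.17 (SE, adjusted p = 0.0458). Sema1a, a transmembrane semaphorin gene, rose by 0.78 ± 0.11 (SE, adjusted p = 0.0429). In the channel and receptor list 1 of 22 passed (1 lower and 1 higher at an unadjusted p under 0.05; median 0.12; 17 with a mean under 6). This was SK, a calcium-activated potassium channel gene, which was under 6 in controls and rose to 7.86 ± 0.23 (SD, n = 3), by at least 1.86 (adjusted p = 0.0222), with 1 further probe set at 7.46 and the other 2 under 6. Of the same list, Ca-alpha1D was at -0.49 ± 0.14 (SE, adjusted p = 0.160), and slo was under 6 in both groups.

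Neuron identity factors had 0 of 17 genes past the threshold, but 8 lower and 1 higher at an unadjusted p under 0.05 and a median of -0.54. The groups did not overlap, with jumu lower, in 9 of the 17 genes and in 17.5% of all genes. That share was 23.1% for all genes with a mean of 6 to 9 and 29.3% over 9. Of the 17 genes 2 had a mean under 6. The homeobox gene onecut was at -1.25 ± 0.20 (SE, adjusted p = 0.0538) and the Pax6 gene toy at -1.16 ± 0.19 (SE, adjusted p = 0.0578), while bsh was under 6 in both groups. With an intensity trend 7 of the 17 were lower and 0 higher, against 10.9% and 10.3% of all genes.

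**Figure D4:**
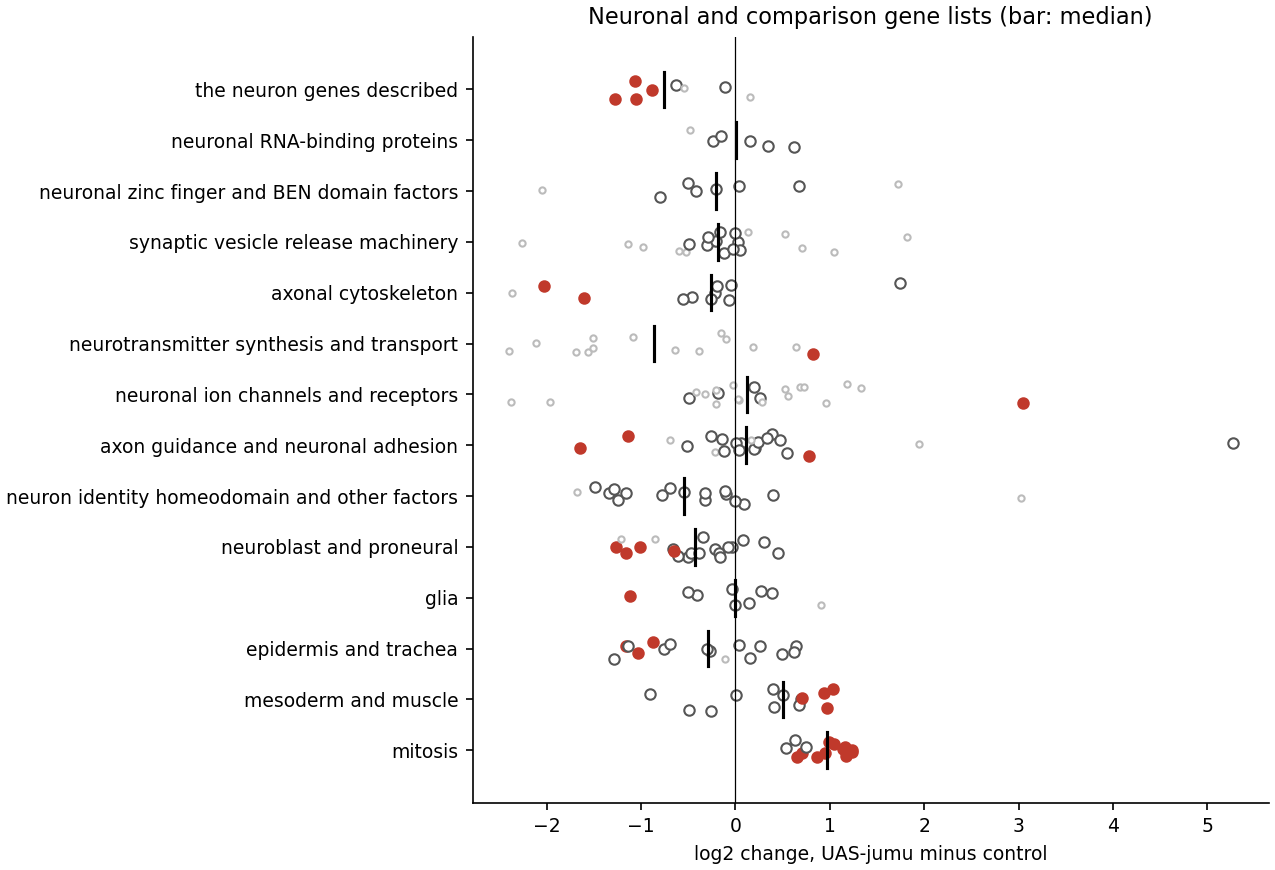
Difference in log2 signal, jumu minus control (horizontal axis), for the 8 described neuron genes, the 8 neuronal lists without them and 5 comparison lists, 1 circle a gene and a bar at the median, red where past an adjusted p of 0.05 and small where the mean signal was under 6. The falls of elav, fne, nerfin-1 and insb lie to the left as do those of D and grh, and all 14 mitosis genes lie to the right of 0.

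Progenitor, epidermal, mesodermal and mitotic genes were set beside these. In the neuroblast and proneural list 4 of 20 fell and 0 rose (9 lower and 1 higher before adjustment; median -0.43), led by the Sox gene D (-1.27 ± 0.11 SE, adjusted p = 0.0229) and grh (-1.16 ± 0.11 SE, adjusted p = 0.0245), which is also an epidermal gene. Falls were found in 3 of 16 genes of epidermis and trachea, and no rise (8 lower and 4 higher before adjustment; median -0.29), among them the tracheal factor gene kni (-1.04 ± 0.13 SE, adjusted p = 0.0383). Of 9 glial genes repo fell and none rose (3 lower and 1 higher before adjustment; median -0.01), and gcm, the glial switch gene, was at 0.38 ± 0.10 (SE, adjusted p = 0.129). Of 13 mesoderm and muscle genes 4 rose and 0 fell (8 higher and 2 lower before adjustment; median 0.51), htl and the fusion gene rols (0.97 ± 0.10 SE) having the smallest p, and of 14 mitosis genes 11 rose and 0 fell (median 0.97), with the smallest p for scra (1.24 ± 0.10) and Cenp-C (1.14 ± 0.09 SE). The difference between the neuron genes and these lists was not tested, nor was the part of the other cell types or of mitosis in it. The transcript of jumu was 11.45 ± 0.11 (SD, n = 3) in controls and 13.56 ± 0.18 (SD, n = 3) with UAS-jumu (adjusted p = 0.0165).

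The 5 genes whose profile over the 6 arrays lay nearest to that of elav were taken by the root mean square difference of centred log2 values, among the 3949 other genes with a mean over 9. They were Pax (paxillin, an adhesion adaptor), CG13315, Duox (an NADPH oxidase), link and Lac (an immunoglobulin-type adhesion protein), at 0.033 to 0.057. They fell by 0.83 to 0.97, a size that the selection largely fixed, since the elav profile is mostly its group difference of -0.89. Of the neuron genes insb ranked 23rd (0.092), nerfin-1 25th (0.094), cpo 108th (0.167) and fne 179th (0.201). All these points share the same 6 arrays in 2 groups.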

How the data were processed

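RNA from FACS-sorted cells was measured on 6 oligonucleotide arrays, 3 of each genotype; groups and replicate numbers come from the sample titles. The tool named per the submitters' processing notes is affy, an R package; for its version and steps (background, normalization, probe summary), nothing is stated in the files or labels used here. Deposited values were taken as log2 signals per probe set, a base read from their range. Array medians were 5.43, 5.30 and 5.09 (jumu) and 5.61, 5.64 and 5.38 (control), so quantile normalization was added here. The number of arrays limits the precision.

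Of 18952 probe sets 183 Affymetrix controls were left out. The annotation gave 1 gene to 13647 probe sets, several to 402 and none to 4720; symbols were updated through a RefSeq table (13544 matched). A gene is represented by its probe set with the highest mean. limma 3.58.1 in R 4.3.3 (lmFit, eBayes, two-sided, prior of 0.94 degrees of freedom, no covariates) was checked on simulated data. Same-numbered arrays of the groups had correlations of -0.0118, 0.0026 and 0.0097 between their deviations from the group means. These took in all 18769 probe sets, 10821 of them with a mean under 6, where replicates differed widely. Pairing in brighter probe sets could therefore be missed, and the fit without pairing rests on an assumption.

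The 10 genes, the lists and the naming rule were chosen with earlier results of these data known. The rule names the 10 genes, at most 3 genes of lowest p per neuronal list and at most 2 per comparison list, jumu, and the 5 genes most like elav; other genes named were chosen after their values were seen. A signal of 6 serves as the level under which sizes are bounds. A planned search of promoter motifs and comparison of ELAV proteins were not made here. One gene that the rule names in the axonal cytoskeleton list is not reported here.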

Additional observations from a re-analysis of the deposited data

How the results depend on the processing

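Of the 4 neuron genes that fell, 0 passed with median centring, with either spike-in scaling, or with the replicate number as a block (limma; at an unadjusted p under 0.05 the members lower were 4, 1 with hybridization controls, 1 with poly-A controls and 5). elav reversed in sign with poly-A controls (0.014, adjusted p = 0.940), as did insv (0.44) and RhoGAP100F (0.46), which passed there as higher. Leaving out any 1 of the 6 arrays left 0 members lower (5 at an unadjusted p under 0.05 each time), although the changes barely moved: -0.90 to -0.88 for elav, -1.32 to -1.24 for fne, -1.08 to -1.04 for nerfin-1 and -1.09 to -1.01 for insb, with adjusted p from 0.0752 to 0.119. With an intensity trend 5 members were lower in all arrays and without any 1 of them, as also with the block and the trend together, an alternative chosen after seeing the data. Adjusted p over all alternatives ran from 1.23e-13 to 0.940 for elav, 5.77e-12 to 0.238 for fne, 2.01e-12 to 0.459 for nerfin-1 and 4.12e-10 to 0.634 for insb. No member was higher under any alternative run (at most 1, cpo with poly-A controls, at an unadjusted p under 0.05).

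Of all probe sets 264 fell and 255 rose. Lower and higher counts were 0 and 20 with median centring, 0 and 31 with hybridization controls, 124 and 7301 with poly-A controls, 1339 and 1241 above the median signal, 1510 and 1420 over a signal of 6, 1553 and 1543 with the trend, 1555 and 1539 with the robust trend, 71 and 75 with treat at 1.2-fold, 0 and 0 with the replicate block (2888 at an unadjusted p under 0.05), and 1490 and 1465 with block and trend. Without 1 array they were 0 to 1 and 0 to 21, and with the trend as well 1316 to 1389 and 1209 to 1428. The cause of these changes was not tested. Over the same alternatives the other neuronal genes called ran from 0 to 24 lower and 0 to 49 higher.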

Other observations

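In the axon guidance and adhesion list the largest fitted difference was that of Nlg2, a neuroligin gene whose product acts at the postsynaptic side; it was picked out after its values were seen. Its brightest probe set had 9.02, 8.99 and 9.21 with jumu and 4.89, 5.24 and 1.28 in controls, without overlap. The jumu mean lay 3.07 above a signal of 6 (adjusted p = 0.0938 with limma, 1.52e-05 with an intensity trend). Its other probe sets were under 6 in both group means, at 5.14 against 2.82 and at 1.84 against 1.73.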
